A study of Oryza sativa Indica Group with 4 samples.

Results

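Mitotic A- and B-type cyclins and the CDKA and CDKB kinases were examined in rice seedlings 15 days after germination. Members were all probe sets annotated to a single gene whose symbol or synonym, with or without the prefix Os, reads CYCA or CYCB with a subclass and member number, CDKB likewise, or CDKA. The naming rule can also be read as asking for 2 numbers after CDKA, which would leave out both CDKA genes and keep 9 probe sets. As applied here it gave 14 probe sets of 10 genes, out of 57381 probe sets on the array and 17905 genes named by a probe set of their own. A further 3 genes with matching names, CYCA3-1, CYCB1-5 and CDKB1-1, were not paired with a probe set in the annotation used and were not analysed here.

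The groups were the Indica Basmati cultivar Basmati 370, wild type, and a line of that cultivar labelled as a T-DNA insertional mutant named OsAPC6, with 2 arrays each and no treatment in either. All plants were grown under conditions described as optimal, and each array took labelled RNA prepared from 8 µg of total RNA of seedlings. Whether the mutant is homozygous, whether it stands for more than a single insertion event and how many seedlings were pooled is not stated in the labels. The replicates are called biological in the design text, without a statement that they came from separate sowings.

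Cyclins bind cyclin-dependent kinases and switch them on for one stage of the cell cycle at a time. In plants, A-type cyclins act from S phase into early mitosis and B-type cyclins in mitosis, CDKA acts through much of the cycle, and CDKB is a plant-specific class that acts around the entry into mitosis. OsAPC6 takes its name from the anaphase-promoting complex, or APC/C, which attaches ubiquitin to A- and B-type cyclin proteins and so marks them for destruction. An array reads transcripts, so it does not measure that destruction.

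Of 7 leaf marker probe sets 5 were strong in all arrays, among them the brighter of the chlorophyll-binding protein gene CAB2R, between 42637 and 53054. A probe set of RBCS, of the small Rubisco subunit, was called higher in the mutant (log2 difference 0.26, limma adjusted p = 0.0296). Further bright probe sets of the same gene were at -0.38 and -0.07, with overlapping groups, and did not pass. Those of CAB2R were at 0.21 and 0.20 and did not pass either. The other 2 leaf probe sets, of RBCS and RBCS1, lay at or under 29.2. The listed root marker with probe sets, PHT1-11, is a phosphate transporter gene known for roots colonised by mycorrhizal fungi; none of its 4 probe sets exceeded 33.8, and whether roots were part of the samples was not tested. Log2 signals correlated at 0.98 between the wild-type arrays, at 0.977 between the mutant arrays and at 0.963 to 0.964 between genotypes. RNA integrity can be read from control genes as the signal near the 3′ end over that near the 5′ end, which for GAPDH was 9.72 and 9.84 in wild type against 18.4 and 16.2 in the mutant. The ubiquitin ratio was also higher in the mutant, at 1.04 and 1.03 against 1.32 and 1.27. The ratios of actin (16.1, 8.79; 12.2, 16.6) and cyclophilin (2.27, 2.86; 2.92, 2.38) overlapped between wild type, given first, and mutant.

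Background was read from 63 of 64 reporter probe sets, which are named RPTR on the array and stand outside the rice genes. Their median signal was 4.70, their 95th percentile 40.3 and their highest signal 78.5. A signal is the brightness of a probe set after the authors scaled each array, and signals of different probe sets do not rank the amounts of different transcripts. Of the 14 member probe sets, 5 lay above 78.5 in all arrays, and 7 lay at or under it in every array, near the floor of the measurement. The members above it throughout were those of CYCA1-4 and CYCA3-2, the brighter probe set of CDKA-1 and the 2 brighter probe sets of CDKA-2.

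**Figure D1:**
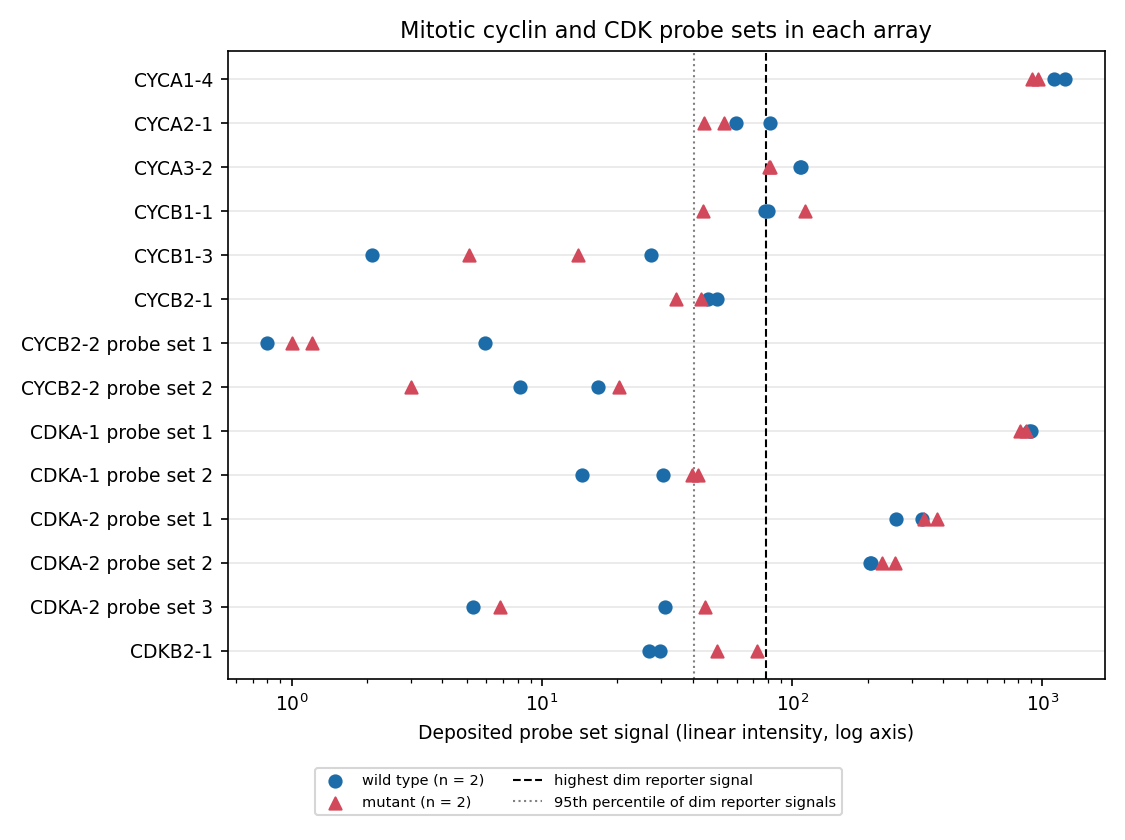
Deposited signal of each member probe set (rows) in each of the 4 arrays, on a log axis, with wild-type arrays as circles, mutant arrays as triangles and the reporter background as vertical lines at 40.3 and 78.5. CYCA1-4 reads 911 to 956 in the mutant and 1115 to 1229 in wild type, while CDKB2-1 and 4 of the 5 B-type cyclin probe sets lie below the line at 78.5 in every array.

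The comparison asked whether transcripts of the mitotic cyclin and CDK genes differed between the insertion line and its parent cultivar. A single member, the A-type cyclin gene CYCA1-4, passed the test, and it was lower in the mutant. The other A-type cyclins had lower values in the mutant, CDKB2-1 and CDKA-2 higher values, and none of these passed. The test was limma on log2(signal + 16), its expected variance following signal level, and p-values were adjusted by Benjamini-Hochberg over the 38172 probe sets that were left once 19086 dim ones had been taken out. Of the 14 member probe sets 11 were kept, of 8 genes, and 1 of the 11 was called at an adjusted p of 0.05. Over all tested probe sets 19.0% were called (10.2% lower and 8.78% higher in the mutant), and the members' count did not stand above that share. The share varied with signal: within 0.25 log2 units of the mean it was 35.2% for CYCA1-4 and 3.60% for CDKB2-1. The 11 tested members were of mixed signal, 4 of them within the reporter range in every array, so 19.0% is not a background of like signal. The median log2 difference, mutant minus wild type, was -0.09 for the 11 members and -0.01 for all tested probe sets. The members' median ran from -0.13 to -0.05 when single arrays were left out, and it was -0.28 over the 6 tested probe sets other than those of CDKA. The 2 arrays per genotype limit the precision, and an exact permutation test of a single value could not give a two-sided p below 0.333 here.

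CYCA1-4 (LOC4338177) had signals of 1115.2 and 1229.3 in wild type and 956 and 910.9 in the mutant. Both mutant arrays lay below both wild-type arrays, and the gap between genotypes was wider than that between the arrays of either. The mean went from 1172 ± 80.7 to 933 ± 31.9 (SD, n = 2 each). The log2 difference was -0.32 ± 0.09 (SE; limma adjusted p = 0.0372), a 1.25-fold fall with a 95% interval from -0.53 to -0.11. At this standard error a difference of 0.30 was needed for a call, so the fall passed narrowly. It was no longer called when either wild-type array or either mutant array was left out, with limma adjusted p-values from 0.0522 without the first mutant array to 0.248 without the second wild-type array. Such a fit leaves 1 genotype with a lone array, which is assumed to vary like the arrays of the other genotype and like other probe sets at its signal.

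A difference of this size, in either direction, was common on these arrays. Among 2111 tested probe sets whose mean lay within 0.25 log2 units of that of CYCA1-4, 35.2% were called. An absolute log2 difference at least as large as that of CYCA1-4 was found in 34.9% of them, and the median was 0.22. Of 22 rice actin, cyclophilin, elongation factor, GAPDH and ubiquitin control probe sets, 5 differed between genotypes by at least as much as CYCA1-4. Of these, the 5′ and middle GAPDH probe sets and a middle actin probe set were lower in the mutant, by log2 differences of -0.77, -0.50 and -0.55, and the others, for an elongation factor, were near the floor. The part of RNA integrity in the fall of CYCA1-4 was not tested. Fewer dividing cells in the tissue and less of the transcript per cell cannot be told apart in RNA of whole seedlings.

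The remaining A-type cyclins were dimmer, and both had lower values in the mutant without passing. CYCA3-2 read 108 and 107.9 in wild type and 81.3 and 80.8 in the mutant. These pairs of arrays were nearly identical within each genotype, and the groups did not overlap. The log2 difference was -0.35 ± 0.27 (SE; limma adjusted p = 0.429). Its standard error came almost wholly from the spread of other probe sets at like signal, since its own residual SD was 0.00376 against a moderated SD of 0.265. CYCA2-1 read 81.8 and 59.9 in wild type and 53.5 and 44.3 in the mutant. All mutant values were again lower, within the range of the reporter probe sets, and the log2 difference was -0.41 ± 0.34 (SE; limma adjusted p = 0.484). The 95% intervals ran from -0.94 to 0.24 for CYCA3-2 and from -1.18 to 0.36 for CYCA2-1, so that neither a fall as large as that of CYCA1-4 nor a small rise was outside them. In all 3 A-type cyclins both mutant arrays lay below both wild-type arrays. Such separation downward was found in 29.8% of all tested probe sets, and in 56.7% in either direction.

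B-type cyclins, the partners of CDKs in mitosis itself, were dim: 4 of their 5 probe sets lay within the reporter range in every array, and that of CYCB1-1 passed it in 2 arrays. CYCB1-1 read 77.7 and 79.7 in wild type and 44.2 and 113 in the mutant. The mutant arrays lay on either side of the wild-type arrays, so the groups overlapped, and the log2 difference was -0.10 ± 0.38 (SE; limma adjusted p = 0.898). CYCB2-1 read 50.2 and 46 in wild type and 34.4 and 43.4 in the mutant, a difference of -0.23 ± 0.38 on the log2 scale (SE; limma adjusted p = 0.756). Its groups did not overlap, but every value was within the reporter range. A call would have needed a 2.35-fold difference for CYCB1-1 and a 2.34-fold difference for CYCB2-1 in the signal with 16 added. In the signal itself the fold needed was larger, since the added constant understates changes of dim probe sets. Smaller changes of these transcripts were not detectable with these arrays.

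The other 3 B-type probe sets were among the dim ones taken out and were not tested. That of CYCB1-3, a gene also listed as CycB1-1, read 27.3 and 2.1 in wild type and 5.1 and 13.9 in the mutant. Those of CYCB2-2 stayed at or under 5.9 and 20.4 in all arrays. The groups overlapped in all 3, and no level of these transcripts could be told from the reporter background.

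CDKB2-1 (LOC4346016), the measured CDKB kinase, had the largest positive difference among the members. It read 26.9 and 29.6 in wild type and 50 and 72.3 in the mutant. Both mutant arrays lay above both wild-type arrays, which were under the 95th percentile of the reporter signals. None of the 4 values passed the highest reporter signal. The mean went from 28.3 ± 1.91 to 61.2 ± 15.8 (SD, n = 2 each), a ratio of 2.16 on the signals. The log2 difference with 16 added, which understates changes of dim probe sets, was 0.79 ± 0.39 (SE; limma adjusted p = 0.214), with a 95% interval from -0.09 to 1.66. A difference of 1.26 would have been needed for a call at this standard error. Among 3560 tested probe sets with a mean within 0.25 log2 units of it, 3.60% were called. An absolute log2 difference at least as large as that of CDKB2-1 was found in 19.3% of them.

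The CDKA kinases, which carry the plant cell cycle together with D-, A- and B-type cyclins, were read by 5 probe sets. The brighter probe set of CDKA-1, whose suffix _s_at marks probes shared by related transcripts, read 880.9 and 896.5 in wild type and 809.8 and 860.5 in the mutant. Mutant values were slightly lower, without overlap, and the log2 difference was -0.09 ± 0.09 (SE; limma adjusted p = 0.598; 95% interval -0.30 to 0.12). The other probe set of CDKA-1 lay within the reporter range and went the opposite way, from 30.4 and 14.5 to 42.2 and 39.8, a difference of 0.60 ± 0.45 on the log2 scale (SE; limma adjusted p = 0.432). The probe sets of this gene thus disagreed in sign, and neither passed.

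CDKA-2 was read by 3 probe sets, all with a positive difference when all arrays were used. Its brightest, with suffix _x_at for possible cross-hybridisation, read 330 and 259.9 in wild type and 377.8 and 336.6 in the mutant. The second, with probes of its own, read 206.8 and 205.4 against 257.7 and 227.6. In both the mutant arrays lay above the wild-type arrays. Their log2 differences were 0.27 ± 0.16 and 0.22 ± 0.17 (SE; limma adjusted p = 0.308 and 0.460). The 95% intervals were -0.09 to 0.63 and -0.17 to 0.60. The third, at 5.3 to 45 in all arrays, gave overlapping groups and a difference of 0.24 ± 0.65 on the log2 scale (SE; limma adjusted p = 0.858). That difference turned to -0.33 without the first array of wild type and to -0.47 without the first array of the mutant.

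**Figure D2:**
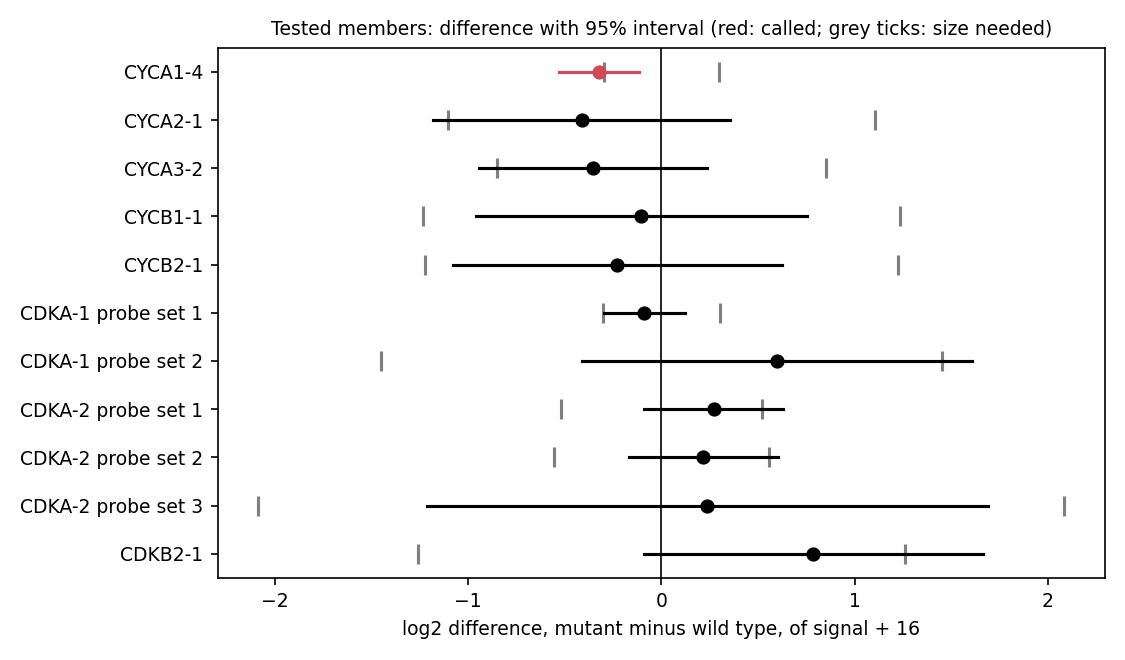
Log2 difference (mutant minus wild type, of signal + 16) of the 11 tested member probe sets, with 95% intervals from the limma fit and grey ticks at the size that a call would have needed. The red CYCA1-4 point at -0.32 lies just past its tick at -0.30, while the intervals of all other members include 0.

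Among the 11 tested probe sets, 5 had every mutant value below and 4 every mutant value above the wild-type values, 9 in all, beside 56.7% of all tested probe sets. Cyclins accounted for 4 of the 5 lower ones and kinases for all 4 higher ones. Probe sets of 1 gene share their source, and of the 4 higher ones 2 belong to CDKA-2. No member other than CYCA1-4 had an unadjusted p under 0.05, and over all tested probe sets 30.6% had one.

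Genes whose values ran most like those of CYCA1-4 and CDKB2-1 over the 4 arrays were sought among 2860 tested probe sets with an informative gene name, by the Euclidean distance of centred log2 values. The nearest to CYCA1-4 were LOL1 at a distance of 0.022, CIPK1 at 0.034 and rgp2 at 0.036, with log2 differences of -0.33, -0.35 and -0.29. The nearest to CDKB2-1 were OsGH3-6 at 0.036, CRK10 at 0.12 and OsSUV3L at 0.13, with log2 differences of 0.78, 0.67 and 0.78. With 4 arrays such likeness is a description of these samples.

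Genes that act with the mitotic kinases were read in companion lists. Among inhibitors of cyclin-CDK complexes 5 of 9 tested probe sets were called higher and none lower, with a median log2 difference of 0.52. Over all tested probe sets 8.78% were called higher. The share called in either direction varied with signal, at 35.2% near CYCA1-4 in mean signal and 3.60% near CDKB2-1. The 5 called probe sets belong to the KRP family genes KRP1, KRP4 and KRP6 and to EL2, a rice inhibitor of the SIAMESE-related class. Dimmer probe sets of KRP4 and KRP6, at or under 43.5 and 45.4, had higher values in the mutant and did not pass (limma adjusted p = 0.513 and 0.220). EL2, by its brighter probe set, went from 5257.6 and 5057.5 to 7484.9 and 7694.3, a difference of 0.56 ± 0.06 on the log2 scale (SE; limma adjusted p = 0.000242). KRP6, by its brighter probe set, went from 960.1 and 990.5 to 1409.8 and 1524.4, a log2 difference of 0.58 (limma adjusted p = 0.00129). In the 5 called probe sets every mutant value lay above every wild-type value, which is no separate support, since they were picked as called higher. Of the 9 probe sets, 7 had every mutant value above and 2 every mutant value below the wild-type values. Over all tested probe sets these shares were 26.9% and 29.8%. The lower 2 were KRP5 and the SIAMESE-related gene SMR1, at log2 differences of -0.18 and -0.49. Neither passed (limma adjusted p = 0.594 and 0.217).

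D-type cyclins, the partners of CDKA at the start of the cycle, gave 0 calls by limma among 10 tested probe sets, beside 19.0% called over all. Several of them were about as dim as CDKB2-1, near whose mean signal 3.60% of tested probe sets were called. The median log2 difference of the D-type cyclins was 0.00. The largest negative value among them was -0.39 for CYCD5-1 (limma adjusted p = 0.111). CKS1, a small subunit that docks on CDKs, had signals between 2334.3 and 2543.1 in all arrays, with overlapping groups. MYB3R-2, of the MYB family that activates mitotic genes in plants, stayed between 791.2 and 842.7, also with overlap. Neither passed (limma adjusted p = 0.823 and 0.974).

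The remaining CDK and cyclin classes had 5 falls and 1 rise among 22 tested probe sets, with a median log2 difference of -0.13. That is 27.3% called, beside 19.0% of all tested probe sets. The list holds bright and dim probe sets. Among all tested probe sets 35.2% were called near CYCA1-4 in mean signal and 3.60% near CDKB2-1. CDKF-1, whose Arabidopsis relative activates other CDK-activating kinases, went from 2126.3 and 2089.9 to 1234.3 and 1753.3, a difference of -0.51 ± 0.14 on the log2 scale (SE; limma adjusted p = 0.0244). CDKF-3 went from 2286.5 and 2224.4 to 1688.6 and 1554.6, a difference of -0.47 ± 0.08 on the log2 scale (SE; limma adjusted p = 0.00234). The probe sets of CDKF-4 differed: the dimmer fell by 1.14 and passed (limma adjusted p = 0.0378), and the brighter was at -0.20 and did not (limma adjusted p = 0.151). CDKG-2 fell by 0.48 and 0.26 in 2 of its 3 probe sets (limma adjusted p = 0.0165 and 0.0225). The rise, named after its value was seen, was in CDKE-1, of the Mediator-associated kinase class, at 0.43 by its dimmer probe set (limma adjusted p = 0.0201), while its brighter one was at -0.16 and did not pass.

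**Figure D3:**
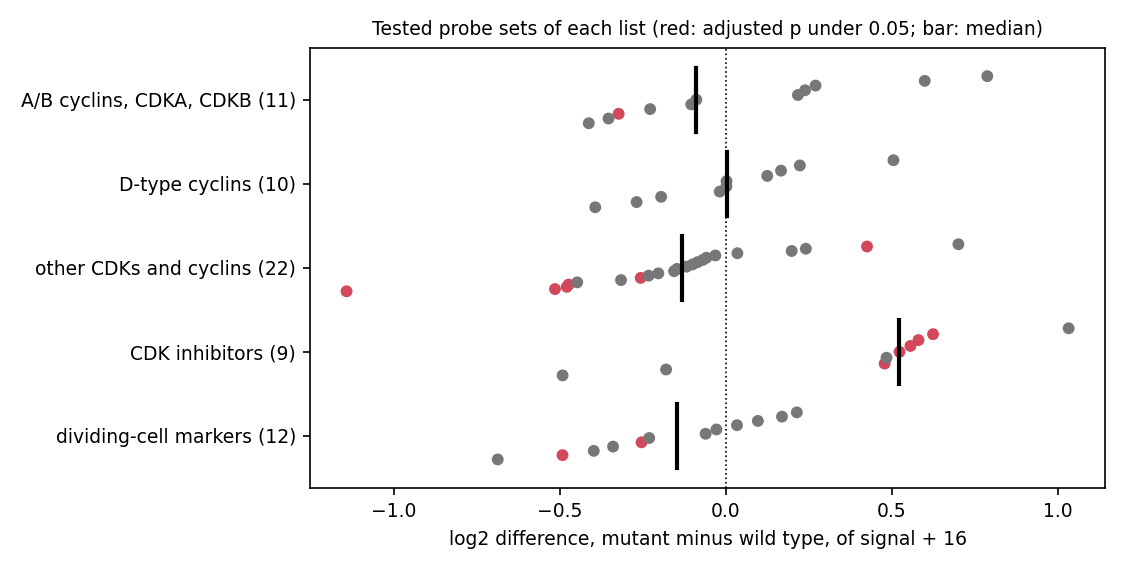
Log2 difference (mutant minus wild type, of signal + 16) of each tested probe set in the mitotic cyclin and CDK family and in 4 companion lists, with the number of probe sets in brackets and a bar at the median. The mitotic family has 1 red point, CYCA1-4, and a median of -0.09, beside a median of 0.52 for the CDK inhibitors.

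Transcripts of DNA replication and histones, which mark dividing cells, were given as a check on the tissue. Their summed signal over 12 probe sets was 29762 and 29169 in wild type and 27180 and 27454 in the mutant, with no overlap. Most of that sum came from H2B histone genes, of which H2B.5 and H2B.7 fell by 0.25 and 0.49 (limma adjusted p = 0.0155 and 0.00732). The list had 2 calls among 12 probe sets, 16.7% beside 19.0% over all. H2B.6 and H2B.10 had every mutant value above the wild-type values, at log2 differences of 0.10 and 0.17, and did not pass. PCNA, the replication clamp, overlapped between genotypes at 1028 and 1021.1 against 1091.1 and 924.7. The MCM helicase genes were dim, with MCM2 at 94.4 and 119.4 in wild type and 73.9 and 48.2 in the mutant (limma adjusted p = 0.171). In the other MCM genes the groups overlapped. Log2 differences were 0.03 for MCM3, 0.21 for MCM7, -0.40 for MCM4, -0.34 for MCM5 and -0.23 for MCM6, and none passed. The part of the share of dividing cells in the values of CYCA1-4 was not tested.

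The sign of both named members held in all 13 alternative fits, and their calls differed. CYCA1-4 was lower in all 13 and called in 5. CDKB2-1 was higher in all 13 and called in 0, with its lowest limma adjusted p, 0.144, in the fit without an intensity trend, where limma called 0 probe sets in all and 9039 had an unadjusted p under 0.05.

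**Figure D4:**
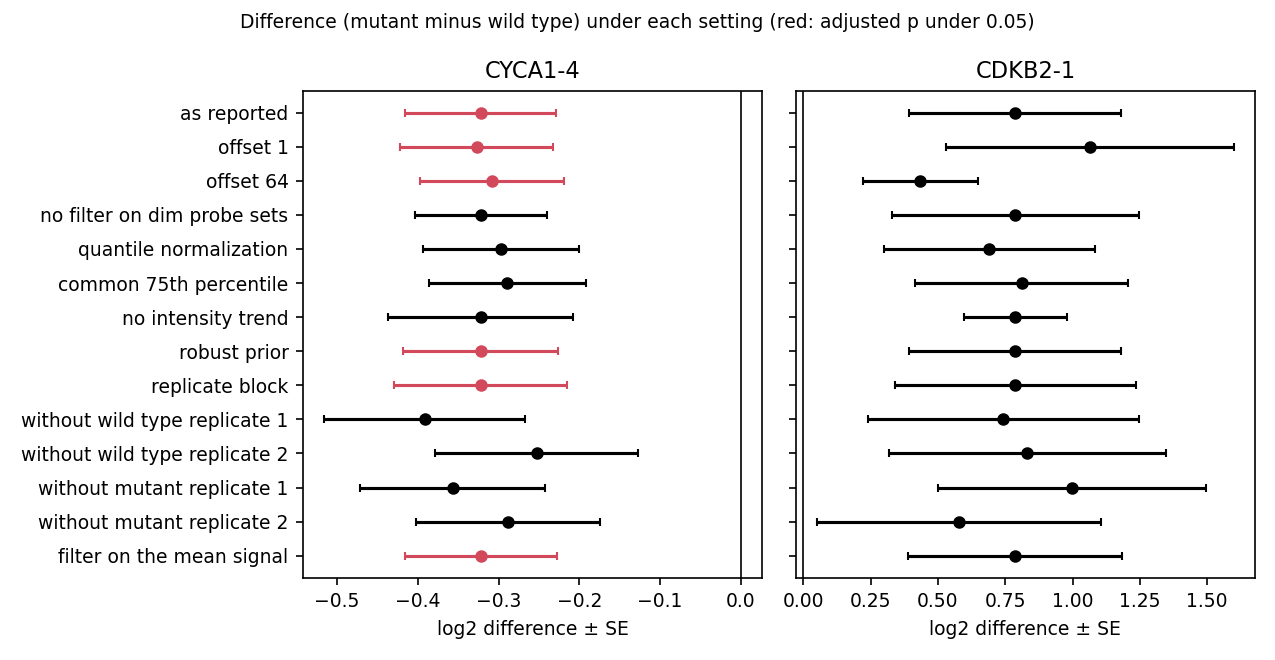
Log2 difference ± SE of CYCA1-4 (left) and CDKB2-1 (right) as reported and under each of 13 alternative fits. Red marks an adjusted p under 0.05, which CYCA1-4 reached in 5 of the 13 and CDKB2-1 in 0, and all points of a panel lie on the same side of 0.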

How the data were processed

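The deposited values are probe set intensities on a linear scale, which the authors made with GCOS 1.2 according to the submitters' processing notes, with no algorithm named. The mean signal was 500.1 in each of the 4 arrays once 2% at either end was trimmed, so arrays had been scaled before deposit. Values were turned into log2(signal + 16) with R 4.3.3. After removal of 123 AFFX controls, the 19086 probe sets of lowest mean log2 value (1 in 3) were dropped and 38172 tested, without further normalization.

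The genotypes were compared in limma 3.58.1 by lmFit and a trended eBayes (Benjamini-Hochberg; threshold 0.05). Genes were named from the platform annotation through gene numbers to the RefSeq table of assembly ASM3414082v1: 22436 probe sets had 1 gene, all matched, 95 had several and 34850 none listed. In the dividing-cell list, homeobox genes OSH3, OSH43 and OSH45 were left out as false matches. Patterns for the anaphase-promoting complex matched no gene, and OsAPC6 was not analysed here. Named genes were all members, CYCA1-4 and CDKB2-1 in full, and called genes of the companion lists, up to 4 by size, with uncalled genes beside them chosen after their values were seen. Members and lists were chosen with earlier results of these data known.

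Alternatives were the added constant, the filter, the scaling, the variance prior, a replicate block, the probe set standing for a gene and leaving out each array. No promoter or protein sequence was used here.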

Additional observations from a re-analysis of the deposited data

Results flagged for a closer look

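Outside the rice genes, a single reporter, RPTR-Os-K01193-1_at, had signals of 10386 and 9989 in the mutant arrays (mean 10188) and 245.6 and 287.2 in the wild-type arrays, and was left out of the background of 63 reporter probe sets for that reason.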

How the results depend on the processing

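CYCA1-4 was the called member, and the count of called member probe sets and of called member genes, 1 each, fell to 0 without the filter on dim probe sets (CYCA1-4 limma adjusted p = 0.0659), with quantile normalization (0.0569), with a common 75th percentile (0.0638), without the intensity trend (0.225), and without each single array (counts 0 to 0; log2 difference -0.39 to -0.25). It stayed at 1 with 1 or 64 added in place of 16, a robust prior, the filter on the mean signal (added after seeing the data), without _x_at or _s_at probe sets, and with each gene taken as the average of its probe sets. Without the trend limma called 0 probe sets against 7244 and 0 in the companion lists, and 9039 had an unadjusted p under 0.05. Leaving out each array gave 4633 to 6536 called probe sets; in the companion lists the counts were 6 to 9 against 11. No cause of these changes was tested. The members' median was -0.09, and -0.28 without the CDKA members (added after seeing the data). With the replicate number as a block CYCA1-4 kept its call (limma adjusted p = 0.0346), and 7661 probe sets were called. The deviations of equally numbered arrays had a correlation of 0.000031 over the tested probe sets, so no shared deviation was seen. That value cannot show whether equally numbered samples were grown or handled as pairs, which is not stated. Among uncalled members, CDKA-1 turned from -0.09 by its brighter probe set to 0.26 when its probe sets were averaged. In the fits of single probe sets signs turned for the dimmest tested CDKA-2 probe set without wild-type array 1 or mutant array 1, and for CYCB1-1 without the first mutant array. Signal within the reporter range limits 7 of the 14 members.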

Other observations

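Genes next to the members in the gene order of assembly ASM3414082v1 were read where they had a probe set, up to 2 on either side. Of 30 such probe sets tested, 4 were called, 13.3% beside 19.0% over all. Both genes beside CYCA3-2, LOC4352641 and LOC4352643, fell, with log2 differences of -0.36 (limma adjusted p = 0.00684) and -0.66 (limma adjusted p = 0.0128). LOC4352641 went from 3952.1 and 3805.3 to 3151.1 and 2880, and LOC4352643 from 454.5 and 379 to 251 and 263.9, so neither overlapped between genotypes. Beside CDKB2-1, HMG3, of the family of sterol and isoprenoid synthesis reductases, read 56.5 and 60.8 in wild type and 78.8 and 80.6 in the mutant and did not pass (limma adjusted p = 0.498). LOC4327545, the second gene before CYCB1-1, rose from 120.8 and 93.3 to 314.3 and 225.5, a log2 difference of 1.21 (limma adjusted p = 0.00503). The other call was 1 of several probe sets of a gene listed as Q-enzyme, the second gene before CYCB2-2, at -0.36 (limma adjusted p = 0.00459). Neighbours were chosen for print after their values were seen.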
